A study of Mus musculus with 2 samples.

Results

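Among Tomato+ wound fibroblasts of mice with forced Hedgehog (Hh) signaling, 199 of 1090 carried transcripts of a shared set of genes, *Penk*, *Cldn1*, *Mest*, *Ccdc3*, *Fxyd7* and *Sfrp5*. A cell was taken as a member of this group when at least 4 of these 6 genes had at least 1 UMI (a sequenced transcript molecule). Cells with more than 10% mitochondrial UMIs were left out first, and fibroblasts were the cells with at least 10 UMIs of *Pdgfra*, *Lum*, *Dpt*, *Lox* and *Postn* per 10000 UMIs and at most 2 UMIs of the endothelial, Schwann, mural and immune genes *Pecam1*, *Sox10*, *Rgs5* and *Ptprc*. In all, 208 of 2669 fibroblasts, from 4680 cells in the 2 libraries, met the rule. The 199 members of the *SM22-SmoM2* library were 18.3% of its fibroblasts (exact binomial 95% interval 16.0 to 20.7), and a further 9 were found among the 1579 fibroblasts of the control library (0.570%, 0.261 to 1.08).

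Hh ligands bind the receptor Ptch1, which releases Smo from inhibition and lets the Gli transcription factors act on their targets, among them *Ptch1*, *Gli1* and *Hhip*, whose products damp or report the signal. SmoM2 is a form of Smo that signals without ligand. In skin, Hh signaling from the epithelium to the underlying mesenchyme acts on the dermal papilla, the group of specialized fibroblasts that instructs the hair follicle, whereas scars are made largely by contractile, matrix-rich fibroblasts.

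Both libraries came from skin wound dermis of mice aged 4–5 weeks, collected 3 days after re-epithelialization, with doxycycline chow (20 g/kg) from day 1 after wounding. Control mice were *SM22rtTA; tetO-Cre; R26-Tomato*, and the *SM22-SmoM2* mice carried *R26-SmoM2/Tomato* in its place with the same *SM22rtTA* and *tetO-Cre*, so that in both the *SM22α* promoter drove rtTA and Tomato+ cells were sorted. Wounds of several mice were pooled into 1 library per genotype, which leaves no replicate and no test between genotypes, and every interval below is at 95% and covers counting error only. The kept cells held 17814222 UMIs in the *SM22-SmoM2* library (1792 cells, median 8837.5 UMIs per cell) and 30103855 UMIs in the control library (2856 cells, median 8607.5).

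The members were chosen by their own UMIs of the 6 genes, so the values of these genes describe the choice and carry no test. *Mest*, an imprinted gene of the hydrolase fold family, was found in 193 of 199 members (97.0%), with a median of 16 and a maximum of 180 UMIs per cell. *Cldn1*, a tight junction claudin, was found in 170 members (85.4%), and *Penk*, the precursor of the enkephalin opioid peptides, in 168 (84.4%), with a median of 8 and a maximum of 326 UMIs. *Ccdc3*, which encodes a secreted coiled-coil protein, was found in 166 members (83.4%), *Fxyd7*, a regulator of the Na,K-ATPase, in 152 (76.4%), and *Sfrp5*, a secreted Wnt antagonist, in 43 (21.6%). Each of the first 5 genes was thus found in most members, and *Sfrp5* in a minority. *Penk* and *Mest* were also frequent outside it, in 417 (46.8%) and 434 (48.7%) of the other 891 *SM22-SmoM2* fibroblasts, while *Cldn1* was found there in 60 cells (6.73%), *Ccdc3* in 92 (10.3%), *Fxyd7* in 121 (13.6%) and *Sfrp5* in 40 (4.49%).

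In UMIs summed over cells and scaled to 1000000 (CPM), the log2 ratio of members over the other *SM22-SmoM2* fibroblasts was 4.17 for *Cldn1* (239 against 13.3 CPM), 3.38 for *Sfrp5* (115 against 11.1), 3.23 for *Ccdc3* (259 against 27.5), 2.71 for *Fxyd7* (149 against 22.8), 2.26 for *Mest* (2181 against 457) and 1.34 for *Penk* (1765 against 695). The *Penk* ratio fell below 2-fold, to 0.77 with members chosen and measured on separate UMIs and 0.67 with at least 5 genes required. Of the combinations of genes, the most frequent was *Penk*, *Cldn1*, *Mest*, *Ccdc3* and *Fxyd7* without *Sfrp5*, in 59 members. The same set without *Fxyd7* was found in 35 members, without *Ccdc3* in 27 and without *Cldn1* in 23. All 6 genes were found in 7 members. The genes lie on 6 different chromosomes in GRCm38, *Penk* at chr4:4133531-4138819, *Cldn1* at chr16:26356642-26371841 and *Ccdc3* at chr2:5137776-5230878, for instance.

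**Figure D1:**
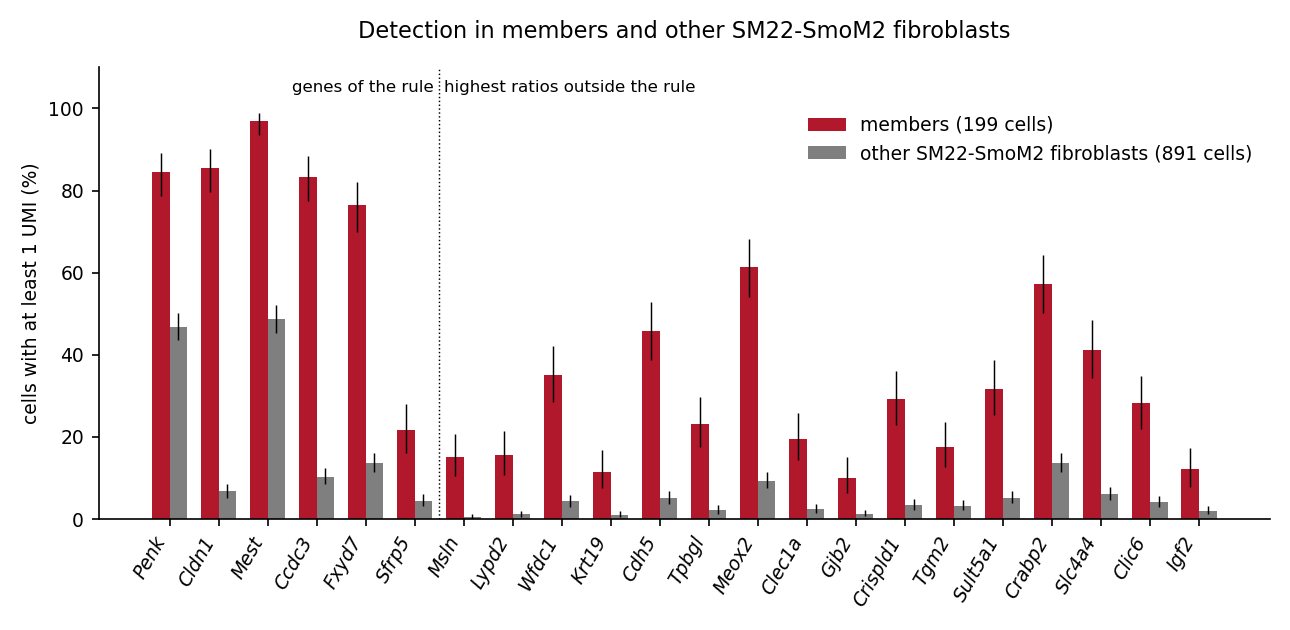
Share of cells (%, y axis) with at least 1 UMI of each of the 6 genes of the rule and of the highest ratios outside it (x axis), as bars for the 199 members and the other 891 *SM22-SmoM2* fibroblasts with exact binomial 95% intervals. *Meox2* was found in 61.3% of members and 9.32% of the others, and *Crabp2* in 57.3% of members.

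At the edge of the rule, 110 cells just inside had 4 of the 6 genes and 119 cells just outside had 3, with 2057 and 1906 CPM of *Penk*, 1848 and 1270 CPM of *Mest*, 222 and 101 CPM of *Ccdc3*, 190 and 66.3 CPM of *Cldn1*, 109 and 58.5 CPM of *Fxyd7* and 48.5 and 17.6 CPM of *Sfrp5*. The cells just inside were thus higher in each gene of the rule, least so in *Penk*. *Ptch1*, which the rule did not use, had 217 CPM inside (194 to 242) and 179 CPM outside (159 to 202). Members were also deeper than the other fibroblasts, with medians of 12433 and 9518 UMIs per cell, and the rule takes deep cells more easily. Of *SM22-SmoM2* fibroblasts divided into 3 groups by depth, 6.06% of the shallowest, 23.7% of the middle and 25% of the deepest were members. Cells with at least 5000 UMIs, 192 members and 723 others, were also thinned to 5000 UMIs. *Cldn1* was then found in 68.8% of these members and 4.70% of these others, *Penk* in 77.1% and 43.3%, and *Sfrp5* in 15.6% and 2.35%.

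Endothelial cells of the same libraries were the comparison for this combination, and free RNA in the droplets was not measured directly. At least 4 of the 6 genes were found in 0 of 183 endothelial cells of the *SM22-SmoM2* library (median 6405 UMIs), a count that allows a share of up to 1.64% when 3 cells are taken as the limit, and in 0 of 472 of the control library (median 8480 UMIs, up to 0.636%). At an equal depth of 3000 UMIs per cell, 73 of 1061 *SM22-SmoM2* fibroblasts (6.88%), 1 of 1579 control fibroblasts (0.0633%) and 0 of 175 *SM22-SmoM2* endothelial cells (up to 1.71%) had them. Single genes were found more often. At full depth *Mest* had a UMI in 35.5% of the endothelial cells and *Penk* in 9.29%, *Fxyd7* in 5.46%, and *Cldn1*, *Ccdc3* and *Sfrp5* each in 1.64%.

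Fibroblast genes were found in the members, most of them at lower levels than in the comparison cells. *Col1a1*, the main fibrillar collagen chain, was found in all 199 members, at 12563 CPM against 16667 CPM in the other fibroblasts. The median log2 ratio over 8 fibroblast identity genes was −0.41, with none at least 2-fold higher and 1 lower, *Dpt* (124 against 459 CPM), an extracellular matrix protein of the dermis, where over all genes 3.00% were at least 2-fold higher in members and 6.0% lower. *Pdgfra*, *Lum* and *Dpt* of these 8 also served to choose the fibroblasts. Schwann markers, in contrast, separated the comparison cells. Cells with at least 3 UMIs over a set of Schwann genes that includes *Sox10*, *Mbp* and *Cdh19*, called Schwann-marker cells here, made up 201 of the other 891 fibroblasts (22.6%) and 3 of 199 members (1.51%). Ratios are therefore also given without them, over 196 members and 690 other fibroblasts (median 10920 UMIs), where they move a count or a direction. The median of the identity genes was then −0.60, with *Pdgfrb*, a PDGF receptor, lower as well (−1.10). Of the 6 genes *Sfrp5* moved most, since the others then had 4.19 CPM of it, in 11 of 690 cells, in place of 11.1 CPM, and the log2 ratio went from 3.38 to 4.81.

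The Hh readout was higher in the members. The summed level of *Gli1*, *Gli2* and *Ptch1*, none of which the rule used, was 289.5 CPM in members (752 UMIs) and 125.0 CPM in the other *SM22-SmoM2* fibroblasts (1141 UMIs), a log2 ratio of 1.21 (1.08 to 1.35). Without Schwann-marker cells it was 1.03 (0.90 to 1.17). The level climbed with the number of the 6 genes found in a cell, from 79.7 CPM in cells with none and 147.2 CPM with 2 to 235.6 CPM with 3, 288.1 CPM with 4 and 289.4 CPM with 5, Schwann-marker cells left out. The 7 cells with all 6 genes had 400.1 CPM (271.9 to 568.0). Within the 3 depth groups the log2 ratio was 1.5, 1.09 and 1.33, from the shallowest to the deepest. When members were chosen on a random share of each cell's UMIs, of equal size to the rest, and measured in the rest, 124 cells were chosen and the log2 ratio was 1.13.

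**Figure D2:**
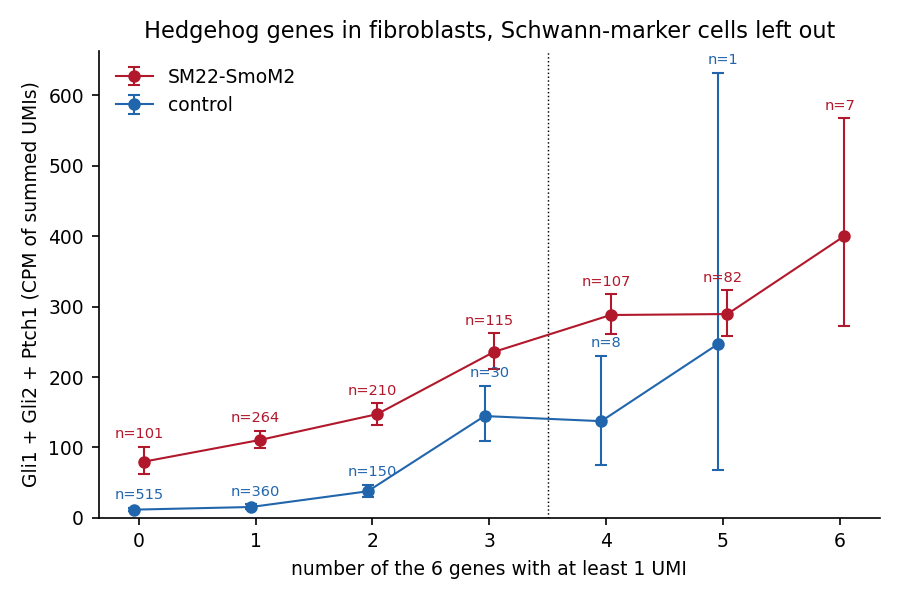
Summed *Gli1*, *Gli2* and *Ptch1* (CPM, y axis) in fibroblasts by the number of the 6 genes with a UMI (x axis), for each library without Schwann-marker cells, with exact Poisson 95% intervals and the number of cells at each point. Levels ran from 79.7 to 400.1 CPM in the *SM22-SmoM2* library and from 11.6 to 246.9 CPM in the control library. The control point at 246.9 CPM is 1 cell with 4 UMIs of these genes (67.3 to 632.2 CPM).

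*Ptch1*, the Hh receptor and target, had 226.8 CPM in members and 93.9 CPM in the others (log2 ratio 1.27, 1.12 to 1.43) and was found in 85.9% and 38.2% of cells. *Hhip*, a membrane protein that binds and sequesters Hh ligands, had 64.3 and 17.0 CPM (1.92, 1.60 to 2.25). *Gli1*, the transcriptional activator that is itself a target, had 43.1 and 20.3 CPM (1.09, 0.74 to 1.44), and *Gli2*, the main activator upstream of it, 19.6 and 10.8 CPM (0.86, 0.34 to 1.36). In the 192 members and 723 others with at least 5000 UMIs, thinned to 5000, *Ptch1* was found in 57.8% and 29.7% of cells. *Hhip* was found there in 24.0% and 8.30% and *Gli1* in 15.6% and 10.1%. The direct targets and feedback genes thus had higher values in members on each of these scales.

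Other genes of the pathway differed in both directions. Of the 19 listed Hh genes, 13 had the 50 UMIs over both groups that were required for a ratio, 4 were at least 2-fold higher in members (*Ptch1*, *Gli1*, *Hhip* and the forkhead gene *Foxd2* at 1.70) and 2 were at least 2-fold lower, with a median log2 ratio of 0.08 against −0.01 over all 10040 genes with a ratio. Without Schwann-marker cells, 2 of 11 were at least 2-fold higher, *Ptch1* (1.11) and *Hhip* (1.69), and 1 was lower, *Gas1*, with a median of −0.07, while *Gli1* was at 0.85 and *Foxd2* had too few UMIs. *Gas1*, a ligand co-receptor whose transcription Hh signaling is known to lower, had 47.4 CPM in members and 194.1 CPM in the others (−2.04, −2.31 to −1.77). *Smo* had a log2 ratio of 0.46 and *Gli3*, mainly a repressor, −0.36 (−0.92 to 0.17). The ligands were almost absent, with 0 UMIs of *Shh* and 1 of *Ihh* in members and 1 and 3 UMIs in the others. *Dhh*, the ligand made by Schwann cells, had 2 UMIs in members and 124 in the others, where it was at 0.26 CPM once Schwann-marker cells were left out.

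Over all genes, 301 of 10040 were at least 2-fold higher in members (3.00%) and 602 at least 2-fold lower (6.0%). Without Schwann-marker cells these were 304 of 9556 (3.18%) and 381 (3.99%). Since the rule used this contrast, the shares are a background for the counts of genes in each list, and nothing is read from them. The 20 highest ratios included 4 of the 6 genes of the rule, and 17 of the 20 were also among the 20 highest without Schwann-marker cells.

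Among the highest genes, *Msln*, a surface glycoprotein of mesothelium, had 37.7 CPM in members and 1.42 CPM in the others (log2 ratio 4.73, 3.89 to 5.69), but was found in only 30 members (15.1%). *Krt19*, a keratin of simple epithelia, had a log2 ratio of 3.58 and was found in 23 members (11.6%), *Lypd2*, of the Ly6 family, one of 4.19 in 31 members (15.6%), and *Gjb2*, a gap junction connexin, one of 2.90 in 20 members (10.1%). Over the alternatives described at the end, the *Gjb2* ratio ranged from 1.45 to 4.60 and the *Msln* ratio from 2.96 to 6.45. *F11r*, the junctional adhesion molecule JAM-A, was found in 141 members (70.9%) and 142 others (15.9%), at 123 and 24.8 CPM (2.32, 2.07 to 2.57). The 7 listed keratinocyte markers had 86.6 CPM summed in members and 57.6 CPM in the others. *Krt5* and *Krt1* had 0 UMIs in members, *Krt14* had 5, and *Krt10*, the one listed keratinocyte marker with enough UMIs, had 76.6 against 50.9 CPM. *Perp*, a desmosomal protein, had 19 UMIs in members and 7 in the others.

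*Meox2*, a homeobox factor of vascular and limb mesenchyme, was found in 122 members (61.3%) and 83 others (9.32%), at 126 and 15.1 CPM (log2 ratio 3.06, 2.77 to 3.36). *Meox2*, *F11r* and *Wfdc1* also led a cluster of 267 fibroblasts, given below, of which 133 were members. Values of these genes in the other cells of that cluster are not given here, so they are not shown to be particular to members. *Cdh5*, the endothelial cadherin, was found in 91 members (45.7%) and 45 others (5.05%), at 72.4 and 8.32 CPM (3.12, 2.73 to 3.52), and *Clec1a*, a C-type lectin-like receptor, had a log2 ratio of 3.05. *Nr2f2*, a nuclear receptor of venous and mesenchymal cells, had 187 and 44.3 CPM, and *Itga6*, a laminin-binding integrin chain, 97.4 and 29.9 CPM. Of the 8 genes of the endothelial list, 5 had enough UMIs, 2 were at least 2-fold higher (*Cdh5* and *Tek*, an angiopoietin receptor, at 1.19) and 1 lower, with a summed 113.6 CPM in members and 48.7 in the others, mostly *Cdh5* in members. Without Schwann-marker cells, 2 of 4 were at least 2-fold higher and none lower, and the median went from 0.32 to 0.62. *Kdr* had 5 UMIs and *Emcn* 10 in the 199 members, and *Pecam1*, which the rule limits, had 20. In endothelial cells of the same library *Cdh5* was found in 93.4%, *F11r* in 86.3%, *Meox2* in 50.3% and *Clec1a* in 30.6% of cells. The part of free endothelial RNA in these values was not tested.

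*Crabp2*, a carrier of retinoic acid to its nuclear receptors, was found in 114 members (57.3%), at 140 against 23.4 CPM (log2 ratio 2.58, 2.33 to 2.83). *Wfdc1*, a secreted protein with a protease inhibitor fold, was found in 70 members (35.2%), at 78.2 against 6.46 CPM (3.60). *Slc4a4*, a sodium bicarbonate cotransporter, had a log2 ratio of 2.58, *Clic6*, a chloride channel family protein, 2.55, *Tgm2*, a crosslinking transglutaminase, 2.68, and *Sult5a1*, a sulfotransferase, 2.67. *Crispld1* had a log2 ratio of 2.83 and *Tpbgl* one of 3.10.

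At the other end, the 15 lowest ratios were taken without Schwann-marker cells. *Mmp3*, the protease stromelysin, had 6.28 CPM in the 196 members and 181 CPM in the other 690 fibroblasts (log2 ratio −4.85, −5.66 to −4.15), and *Mmp13*, a collagenase, 5.89 and 90.9 CPM. *Crabp1*, the second retinoic acid carrier, had 25.5 against 575 CPM (−4.49, −4.87 to −4.14), opposite in direction to *Crabp2*. *Tnn*, a tenascin, had a log2 ratio of −4.52, *Igfbp2*, an IGF-binding protein, −4.46, *Eln*, elastin, −3.94, *Sfrp2*, a secreted Wnt modulator, −3.75, and *Col7a1*, the anchoring fibril collagen, −3.61. The other genes of the 15 were *Ibsp*, a bone sialoprotein (−4.63), *Sema3a*, an axon guidance ligand (−3.53), *Fam69a* (−3.59), *Pla1a*, a phospholipase (−3.55), and *Dkk1*, *Nkd2* and the homeobox factor *Irx1*, which had 0, 2 and 2 UMIs in the members and 135, 124 and 120 in the others. The 3 genes *Crabp1*, *Mmp11* and *Prss35* were all at least 2-fold lower in members, with *Mmp11* at −2.62 and *Prss35* at −2.30. *Mmp3*, *Sfrp2*, *Eln*, *Crabp1* and *Prss35* were leading genes of a cluster of 231 fibroblasts, in the clustering given below, that held 1 member. *Dkk1* and *Ibsp* were leading genes of other clusters with few or no members. The ratios thus compare members with a pool that holds these clusters. With Schwann-marker cells kept, 9 of the 15 lowest genes were different ones, such as *Cadm4*, an adhesion molecule of Schwann cells.

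Wnt genes differed in both directions, the antagonists included. Of 25 listed, 20 had enough UMIs, 4 were at least 2-fold higher in members and 8 lower, with a median log2 ratio of −0.47 (−0.61 without Schwann-marker cells, with 3 of 19 higher and 8 lower). Higher were *Dkk2*, an antagonist (63.9 against 15 CPM, log2 ratio 2.09), *Sfrp4*, another (1.40), and the ligands *Wnt10a* (1.19) and *Wnt2* (1.01). Without Schwann-marker cells *Wnt10a* had too few UMIs, *Wnt2* was at 0.79, and *Sfrp1*, also an antagonist, was at 1.37. Lower were the feedback targets *Nkd1* (9.24 against 48.7 CPM, −2.40) and *Axin2* (4.24 against 11.8 CPM, −1.48), the factors *Tcf7* (−2.21) and *Twist2* (−1.82), the receptor *Lgr5* (−1.56), and the antagonists *Sfrp2*, *Frzb* (−2.86) and *Dkk1*, which had 0 UMIs in members and 138 in the others. *Axin2* was low in absolute number, with 11 UMIs over the 199 members.

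Of the 26 genes of the dermal papilla signature, 20 had enough UMIs, 2 were at least 2-fold higher and 4 lower, with a median log2 ratio of −0.18. *Fgf7*, a growth factor for keratinocytes, had 48.5 against 11.5 CPM (2.08, 1.69 to 2.46) and *Rasd1* 68.9 against 32.6 CPM (1.08). Lower were *Trps1*, a repressor of the GATA family (−1.83), *Cxcr4*, a chemokine receptor (−1.60), *Fgf10* (−1.48) and *Sox2*, which had 3 UMIs in members and 156 in the others, and which was at 0.52 CPM in the others once Schwann-marker cells were left out. In that comparison 1 of 19 was at least 2-fold higher, *Fgf7*, and 5 were lower, with *Rasd1* at 0.92, *Sox2* left with too few UMIs and *Rspo3*, a Wnt amplifier, and *Enpp2*, autotaxin, each at −1.05. *Lef1*, *Corin* and *Prlr* had 0 UMIs in members and 37, 14 and 35 in the others. *Alpl*, the alkaline phosphatase used to mark papillae, had 11.6 and 14.6 CPM (−0.33, −0.96 to 0.25), and *Wif1*, a Wnt inhibitor, 253 and 202 CPM.

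Of the 16 BMP and TGF-beta genes with enough UMIs, out of 20 listed, 4 were at least 2-fold higher and 3 lower, with a median log2 ratio of −0.04 (0.09 without Schwann-marker cells, with equal counts). Higher were the BMP antagonist *Chrdl1* (48.1 against 9.31 CPM, 2.37), *Gdf10* (2.22), *Tgfb3* (116 against 42.2 CPM, 1.46) and *Ltbp1*, which holds latent TGF-beta in the matrix (1.45). Lower were *Fst*, follistatin (−1.64), *Bmp7* (1 UMI against 72) and *Inhbb* (2 against 62). The BMP targets *Id1* and *Id3* had log2 ratios of −0.89 and −0.76, and *Id2* one of −0.08.

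**Figure D3:**
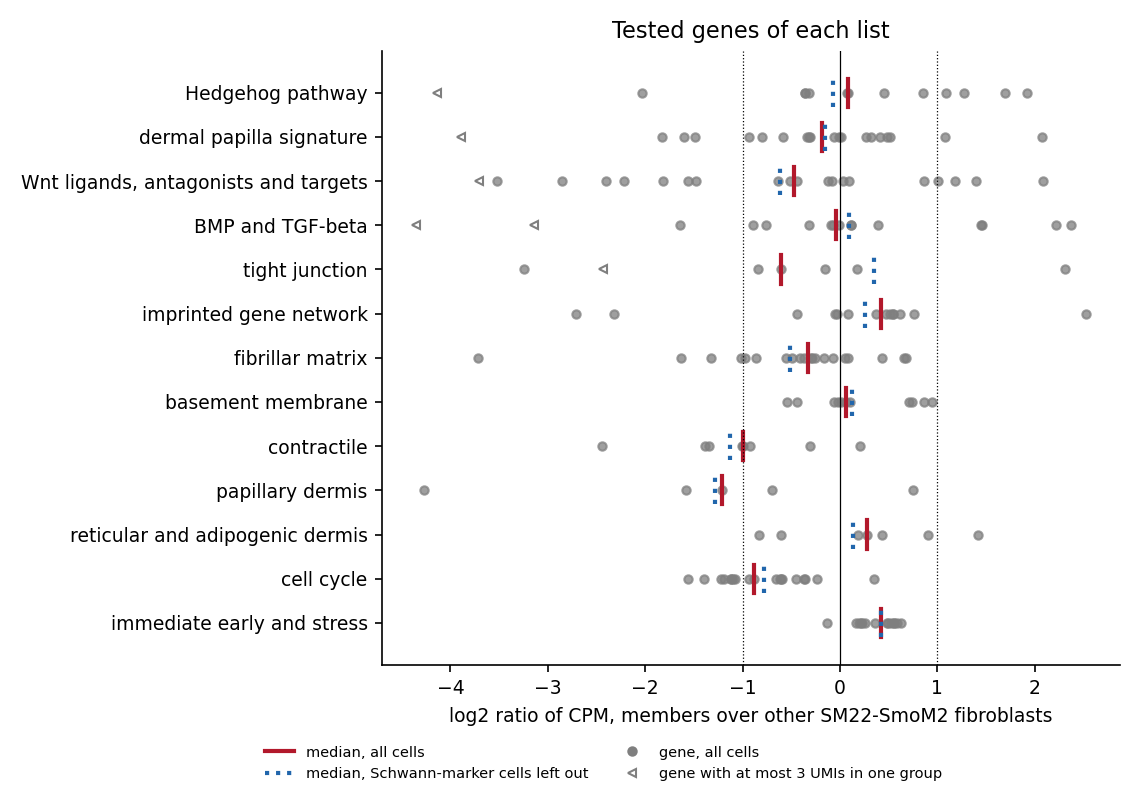
Log2 ratio of CPM (x axis) of members over the other *SM22-SmoM2* fibroblasts for each gene with enough UMIs in 13 gene lists (y axis), with triangles for genes of at most 3 UMIs in a group, the list median with and without Schwann-marker cells and dotted lines at 2-fold. The contractile median was −1.0 and the immediate early median 0.42.

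The contractile and cell cycle lists had negative median log2 ratios, and part of each list was at least 2-fold lower in members. Of the 8 contractile genes with enough UMIs, out of 10, none was at least 2-fold higher and 4 were lower, with a median log2 ratio of −1.0 (−1.13 and 6 lower without Schwann-marker cells). *Acta2*, smooth muscle actin and the marker of myofibroblasts, had 85.1 against 217 CPM (−1.35, −1.56 to −1.15), *Tagln*, the gene of SM22α, 85.1 against 222 CPM (−1.38, −1.59 to −1.18), and *Actg2* 7.70 against 42.0 CPM (−2.45). *Cald1*, caldesmon, was at 0.20. Of 19 cell cycle genes, none was at least 2-fold higher and 8 were lower, with a median of −0.88 (−0.78 and 5 lower without Schwann-marker cells), among them *Ccnb1* (−1.40) and *Cdk1* (−1.22). Cells with at least 2 of *Mki67*, *Top2a*, *Cdk1*, *Ccnb1* and *Ccna2* made up 20 of 199 members (10.1%, 6.25 to 15.1) and 136 of 891 others (15.3%, 13.0 to 17.8), intervals that overlap.

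Of the fibrillar matrix genes, elastin and several collagen-associated proteins had lower values and decorin a higher one. All 20 had enough UMIs, none was at least 2-fold higher and 4 were lower (*Eln*, *Col12a1* at −1.64, *Tnc* at −1.32 and *Fmod* at −1.02), with a median of −0.33 (−0.51 and 6 lower without Schwann-marker cells). *Dcn*, decorin, had 4095 against 2596 CPM (0.66) and *Col14a1* 364 against 227 CPM (0.68). Of 11 basement membrane genes none passed 2-fold in either direction at first. Without Schwann-marker cells, 4 were at least 2-fold higher, *Col18a1* (1.83), *Col15a1* (1.27), *Col4a2* (1.24) and *Col4a1* (1.08), and none lower.

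Of the dermal layer genes, 3 of 5 papillary genes were at least 2-fold lower, *Crabp1*, *Lrig1* (−1.58) and *Col23a1* (−1.21), and *Ntn1*, netrin, was at 0.75. Of 7 reticular and adipogenic genes, 1 was at least 2-fold higher, *Clec3b*, tetranectin (960 against 358 CPM, 1.42, 1.35 to 1.5), none was lower, and *Pi16* was at 0.91. Immediate early and stress genes, which respond to tissue dissociation, had a median log2 ratio of 0.42 over 14 genes, with none past 2-fold in either direction. Their part in the other differences was not tested.

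Beside *Penk*, 2 of 11 genes that would process or receive enkephalin had enough UMIs, and both had lower values in members. *Cpe*, the carboxypeptidase that trims neuropeptides, had 100 CPM in members and 383 CPM in the others (−1.93, −2.12 to −1.75), and *Pam*, the amidating enzyme, 57.8 and 115 CPM (−0.99). The convertase *Pcsk1* and the opioid receptors *Oprm1*, *Oprd1* and *Oprk1* had 0 UMIs in both groups. No other claudin with enough UMIs was at least 2-fold higher beside *Cldn1*. Of the 7 tight junction genes with enough UMIs *F11r* was the one at least 2-fold higher, *Tjp1*, the scaffold ZO-1, was at 0.18, and *Cldn10* (14 against 465 UMIs, −3.24) and *Cldn11* (3 against 57 UMIs) were at least 2-fold lower. Without Schwann-marker cells the list median went from −0.60 to 0.36 over 5 genes, with *F11r* higher at 2.14, *Cldn10* lower at −3.43 and *Cldn11* left with too few UMIs.

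*Mest* is imprinted, and of 14 other imprinted genes with enough UMIs, 1 was at least 2-fold higher, *Igf2*, the fetal growth factor (28.5 against 4.93 CPM, 2.53), which was found in 24 members, and 2 were lower, *Dlk1*, a preadipocyte factor (12.3 against 80.7 CPM, −2.71), and *Nnat*, a small proteolipid (−2.32). *Peg3* was at 0.76, *Meg3* at 0.55 and *H19* at 0.38. Of 7 genes of the Na,K-ATPase and FXYD list with enough UMIs, none was at least 2-fold higher and 1 was lower, *Fxyd5* (−1.25), which was at −0.84 without Schwann-marker cells, where the list median went from −0.04 to 0.12.

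Of other cell types, the immune list stood out by a single cell. Of its 7 genes, 6 were at least 2-fold higher in members, with 292.6 CPM summed against 81.2, and *Cd74*, an antigen presentation chaperone, was the most abundant. One member held 700 of the 760 UMIs. Without the 1 member and 4 others that had more than 20 immune UMIs, the sums were 23.3 and 30.6 CPM. Mural genes had 30.8 CPM summed in members and 50.6 in the others, and of the 2 with enough UMIs 1 was at least 2-fold lower, *Mcam*, an adhesion molecule (−1.27). In the others without Schwann-marker cells the mural sum was 23.0 CPM, and *Mcam* was then at 0.24. The 5 listed Schwann genes had 41.6 CPM summed in members and 127.9 in the others, with *Ngfr*, a neurotrophin receptor, the most abundant in members, where *Sox10*, outside that list, had 0 UMIs. In the others without Schwann-marker cells, which were left out by some of these genes, the sum was 16.2 CPM, and the 2 genes with enough UMIs, *S100b* (1.36) and *Ngfr* (1.29), were then at least 2-fold higher in members.

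Clustering the 1090 *SM22-SmoM2* fibroblasts into 8 groups without the 6 genes placed the members mainly in 2 of them. One cluster, of 267 cells, was led by *Meox2*, *F11r*, *Lbp* and *Wfdc1* and held 133 members (49.8% of its cells, 43.7 to 56.0, and 66.8% of all members). A cluster of 154 cells led by *Areg*, *Srxn1*, *Il1rl1* and *Ptgs2*, genes of growth factor, oxidative stress and inflammatory responses, held 50 members (32.5%, 25.2 to 40.5). A cycling cluster held 10, and the other 5 clusters held 6 in all, with none in a cluster of 28 cells led by *Cd24a*, *Ibsp*, *Rspo3* and *Rspo1*.

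**Figure D4:**
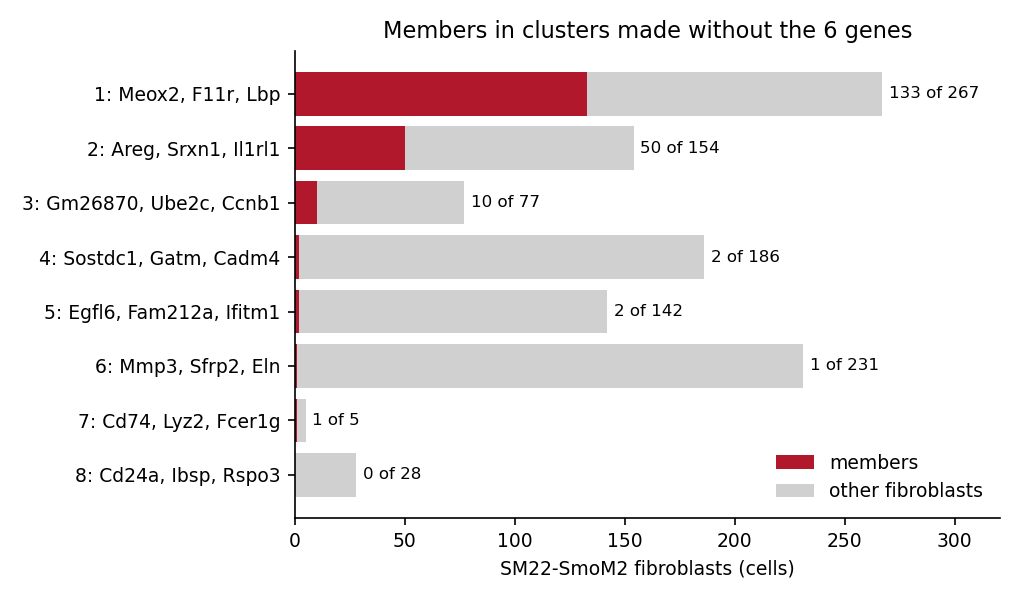
Number of *SM22-SmoM2* fibroblasts (x axis, cells) in each of 8 clusters, which are named by 3 leading genes (y axis), with members in red, other fibroblasts in grey and the number of members of all cells beside each bar. The *Meox2* cluster held 133 members of 267 cells, and the *Cd24a* cluster held none of 28.

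A high Hh readout was not particular to the members. Of the 8 clusters, the *Cd24a* cluster, which held no member, had the highest summed level of *Gli1*, *Gli2* and *Ptch1*, 379.2 CPM, and cells of the *Meox2* cluster that were not members had 274.2 CPM. The 140 cells outside the group in a cluster led by *Egfl6*, *Sox11* and *Frzb* had 225.1 CPM, and the log2 ratio of members over them was 0.36 (0.17 to 0.56). Against those 140 cells the log2 ratio was 5.42 for *Meox2*, which took part in the clustering, and 5.47 for *Mest* and 2.94 for *Penk*, which the rule used, so these values describe how the cells were chosen. Members had 15.4 CPM of *Egfl6*, a secreted matrix protein, against 138 CPM over all other fibroblasts. In contrast, the 230 cells outside the group in a cluster led by *Mmp3*, *Sfrp2* and *Eln* had 21.2 CPM of the 3 Hh genes, and the log2 ratio was 3.77 (3.39 to 4.18).

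Members in the *Areg* cluster and in the *Meox2* cluster differed from each other. The 50 in the *Areg* cluster had 209.2 CPM of *Gli1*, *Gli2* and *Ptch1* and the 133 in the *Meox2* cluster 335.6 CPM, a log2 ratio of −0.68 (−0.95 to −0.42). *Areg*, the EGF receptor ligand amphiregulin, had 335 and 3.73 CPM, *Il1rl1*, the receptor of IL-33, 512 and 9.32 CPM, and *Hmox1*, heme oxygenase, 1023 and 68.4 CPM. *Meox2* had 44.3 and 172 CPM, and *Sfrp5* 20.1 and 175 CPM. Apart from *Sfrp5*, which the clustering left out, these genes also took part in making the clusters, so the values describe them. *Areg* over all members was at 99.3 CPM against 35.4 CPM in the other fibroblasts.

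Members with and without *Sfrp5* differed in several of the highest genes. The rule used *Sfrp5*, and a member with it needed only 3 of the other 5 genes, so the split, chosen after seeing the data, is given as a description. Of the 43 members with *Sfrp5* (median 11563 UMIs per cell), 32 had *Wfdc1* (74.4%), 20 *Lypd2* (46.5%), 17 *Msln* (39.5%), 17 *Krt19* (39.5%) and 14 *Igf2* (32.6%). Of the 156 members without it (median 12585 UMIs), 38 had *Wfdc1* (24.4%), 11 *Lypd2* (7.05%), 13 *Msln* (8.33%), 6 *Krt19* (3.85%) and 10 *Igf2* (6.41%). Of the 23 members with *Krt19*, 17 thus had *Sfrp5*, as did 20 of the 31 with *Lypd2* and 17 of the 30 with *Msln*. In CPM the log2 ratio of members with over members without *Sfrp5* was 3.99 for *Krt19* (3.21 to 4.85), 3.24 for *Msln* (2.60 to 3.92), 3.08 for *Lypd2* (2.37 to 3.83) and 2.86 for *Wfdc1* (2.43 to 3.29). Of the 16 highest genes that are not in the rule, 10 were at least 2-fold higher with *Sfrp5* and none lower, with a median of 1.12. These 16 were ranked on UMIs of members that include the 43 with *Sfrp5*, so part of this count is built in and it carries no test. Over all 5526 genes with a ratio in this contrast, 135 (2.44%) were at least 2-fold higher and 224 (4.05%) lower.

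**Figure D5:**
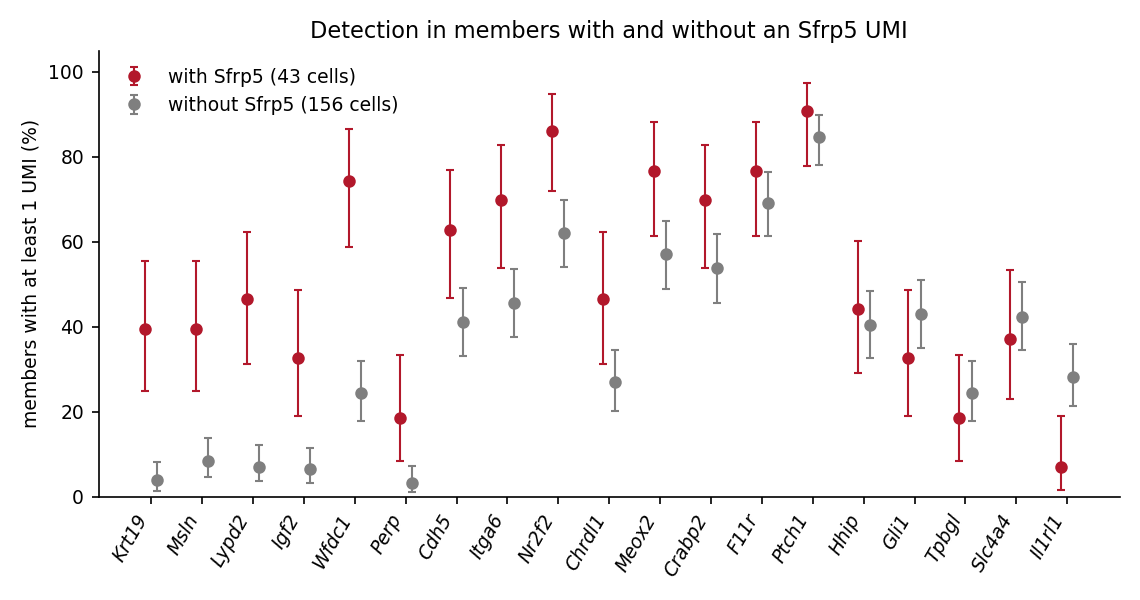
Share of members (%, y axis) with at least 1 UMI of each gene (x axis), as points for the 43 members with *Sfrp5* and the 156 without, with exact binomial 95% intervals. *Krt19* was found in 39.5% and 3.85%, and *Il1rl1* in 6.98% and 28.2%.

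Not all genes followed this split. *Ptch1* was found in 90.7% of members with *Sfrp5* and 84.6% of those without, *F11r* in 76.7% and 69.2% and *Slc4a4* in 37.2% and 42.3%, and the summed Hh level was 329.9 and 279.4 CPM, a log2 ratio of 0.24 (−0.01 to 0.49). *Penk* was at 902 CPM with *Sfrp5* and 1982 without (−1.14, −1.28 to −1.0). The rule fixes part of that, because a member without *Sfrp5* needed 4 of the other 5 genes. The 31 members without *Penk* had 369.2 CPM of the 3 Hh genes and the 168 with *Penk* 274.2 CPM (log2 ratio of with over without −0.43, −0.69 to −0.16). The rule used *Penk*, so this split is a description of the members.

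The control library held 9 members (median 12704 UMIs per cell), in which every value rests on a few UMIs. *Penk* and *Mest* were found in all 9, with 1 to 10 and 1 to 29 UMIs per cell, *Cldn1* and *Ccdc3* in 8, *Fxyd7* in 2 and *Sfrp5* in 1. *Meox2* was found in 8 of the 9, *Wfdc1* and *Cdh5* in 4, and *Msln* and *Krt19* in none. *Ptch1* was found in 4 of them (12 UMIs), *Gli1* in 3 and *Gli2* in 1. Together these 3 Hh genes had 18 UMIs, or 152.3 CPM (90.3 to 240.7), against 20.0 CPM in the other 1570 control fibroblasts.

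A larger set of control cells, which includes these 9 members, gave the same order. Without Schwann-marker cells, 39 control fibroblasts had at least 3 of the 6 genes, and their summed Hh level was 146.4 CPM against 17.2 CPM in the 1025 with fewer (log2 ratio 3.09, 2.69 to 3.47). That level was close to the 147.2 CPM of *SM22-SmoM2* fibroblasts with 2 of the genes. At equal numbers of genes the control cells were lower. Control cells with 3 and 4 of the genes had 145 and 137 CPM, and *SM22-SmoM2* cells 235.6 and 288.1 CPM. In this control contrast 540 of 10176 genes (5.31%) were at least 2-fold higher and 437 (4.29%) lower, with a median of 0.07. Of the 16 genes outside the rule among the 20 highest in the *SM22-SmoM2* members, 10 had enough UMIs in control cells, 8 were at least 2-fold higher and none lower (median 1.79), among them *Clec1a* (3.73), *Wfdc1* (3.31), *Cdh5* (2.83) and *Meox2* (2.36). Of the 15 lowest without Schwann-marker cells, 14 had enough UMIs, 9 were at least 2-fold lower and none higher (median −1.64), among them *Igfbp2* (−4.98) and *Tnn* (−3.34). *Acta2* and *Tagln* were at −2.95 and −2.99. *Eln* and *Mmp3*, at −0.28 and −0.27, were close to 0 in this contrast.

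The 2 libraries and the groups also differed in the share of male cells. Of cells with *Xist* or Y-linked UMIs but not both, 98.8% of *SM22-SmoM2* members (95.9 to 99.9), 86.4% of the other *SM22-SmoM2* fibroblasts and 93.6% of those without Schwann-marker cells were male, against 82.3% of all kept *SM22-SmoM2* cells and 66.6% of all kept control cells. In male cells alone, 171 fibroblasts of the *SM22-SmoM2* library were members, and the log2 ratio of the summed Hh genes was 1.23. Barcodes with both *Xist* and Y-linked UMIs, which can be 2 cells in 1 droplet, were 7 of the members and 17 of the others. Without them the log2 ratio was also 1.23.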

How the data were processed

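Tomato+ dermal cells of 2 pooled libraries (1 control, 1 *SM22-SmoM2*) were measured with the 10x Chromium Single Cell 3′ v2 kit. The authors aligned reads to mm10 and made the deposited UMI counts with bcl2fastq and Cell Ranger, as listed in the submitters' processing notes. The deposited matrices hold integer counts of UMIs for each gene in each cell, with no normalization. The versions, the annotation and the strand counted are not given in the sources used here. Barcodes shared by the libraries could not be counted, because the barcode list holds all 737280 sequences of the kit. Cells were taken by their column, and no doublets were removed.

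Members were found by the rule given at the start of the report, and members and gene lists were chosen with earlier results of these data known. UMIs were summed over cells with NumPy 2.4.6 and SciPy 1.17.1, and a log2 ratio needed 50 UMIs over both groups, with a count under 3 taken as 3 in rankings and list medians. Intervals were exact Poisson for levels, exact binomial (Clopper-Pearson) for shares and exact conditional for ratios, all at 95%. Genes named were the 6, those of the 27 lists, and the 20 highest and 15 lowest ratios, with and without Schwann-marker cells, among genes with the same direction in shallow and deep cells and leaving out mitochondrial, ribosomal protein and sex-linked genes. Fibroblasts were clustered by K-means (K = 8, 50 starts, scikit-learn 1.9.0) on 20 principal components of 2000 variable genes without the 6. Gene positions came from GENCODE M21. The summing and ratio steps were checked on simulated data. Alternatives changed the filters, the rule, the depth and the scaling. Leaving out Schwann-marker cells or cells rich in immune UMIs was chosen after seeing the data, as was the split by *Sfrp5*. Some genes are not reported here, and list counts, sums and rankings were taken without them.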

Additional observations from a re-analysis of the deposited data

Results flagged for a closer look

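In the *SM22-SmoM2* library, 36 cells outside the fibroblast rule also had at least 4 of the 6 genes, against 1 cell of the control library. Of these, 30 failed on the fibroblast genes alone (their median over the 36 was 8.18 UMIs per 10000), 5 on UMIs of other lineages alone and 1 on both. Together they had 312 CPM of *Gli1*, *Gli2* and *Ptch1* (265 to 365), close to the 289.5 CPM of the members.

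Some listed genes pointed one way in *SM22-SmoM2* members and the other way in the 39 control fibroblasts with at least 3 of the 6 genes, each against the rest of its library without Schwann-marker cells and each with an interval that excludes 0. The genes were picked for this pattern out of the listed genes, so they are a description. Some control intervals were wide, such as −4.46 to −0.61 for *Dkk2* and −6.33 to −1.42 for *H2-Aa*. The difference between the libraries was not tested. Among Wnt genes, *Dkk2* was at 1.89 in *SM22-SmoM2* and −2.17 in control cells, *Sfrp4* at 1.22 and −0.45, *Wnt2* at 0.79 and −0.97, and *Rspo3*, a Wnt amplifier, at −1.05 and 1.58. *Sox11*, a factor of embryonic mesenchyme, was at −2.02 and 1.17. The imprinted RNA *H19* was at 0.17 and −2.15, and the BMP-binding *Fstl1* at 0.21 and −0.46.

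Of matrix and dermal layer genes, *Clec3b* was at 1.21 in *SM22-SmoM2* and −0.30 in control cells, *Ly6a* at 0.21 and −0.82, *Fn1* at 0.25 and −0.48, *Col14a1* at 0.48 and −0.25, and *Col6a3* at −0.49 and 0.19. The stress gene *Atf3* was at 0.55 and −0.83. The immune genes *H2-Aa* (2.35 and −3.28), *Cd74* (2.16 and −2.74) and *Lyz2* (1.36 and −3.71) were also opposite, and in *SM22-SmoM2* members 700 of their list's 760 UMIs were in 1 cell.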

How the results depend on the processing

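With at least 3 of the 6 genes required, 318 *SM22-SmoM2* cells (29.2%) and 41 control cells were members and the log2 ratio of the summed *Gli1*, *Gli2* and *Ptch1* was 1.40. With at least 5 required, there were 89 (8.17%) and 1, the ratio was 1.02, and the contractile and cell cycle medians were −0.81 and −1.45. With cells thinned to 5000 UMIs, there were 112 (11.8%) and 4, the ratio was 0.98 and the immediate early median 0.22. Chosen on a random equal share of each cell's UMIs, there were 124 (11.2%) and 3. Under a fibroblast minimum of 20 UMIs per 10000, the ratio was 1.65 and the contractile, cell cycle and fibrillar medians were −1.24, −0.42 and −0.47. In male cells alone, 22.8% of *SM22-SmoM2* fibroblasts and 5 control cells were members and the immediate early median was 0.31, and it was 0.34 without the deepest 5% of cells. The fibrillar median was −0.42 without cycling cells and −0.24 on means of per-cell CPM, which gave an immediate early median of 0.24. A minimum of 20 UMIs gave 528 genes at least 2-fold higher, and one of 200 UMIs 127 higher and 232 lower. Without Schwann-marker cells, members were 22.1%, the ratio was 1.03, 381 genes were lower and the fibrillar median was −0.51. With 12 clusters, 41.2% of members were in the cluster with most. Apart from rules that keep other cells or genes by construction, the cause of these shifts was not tested. The ratio stayed between 0.98 and 1.65 under all alternatives run. Of the 6 genes, the 20 highest and 15 lowest ratios and the 3 Hh genes, 39 were past 2-fold, and of these 30 stayed past it after thinning (7 had too few UMIs), 29 without Schwann-marker cells (9 too few), 34 on the equal share of UMIs (3 too few) and at least 37 under each other alternative. Those of the 39 with a ratio that fell below 2-fold were *Gli1*, at 0.79, 0.85 and 0.99 under these 3, 0.75 with at least 5 genes required and 0.96 with no UMI of other lineages, and *Penk*, at 0.71 after thinning, 0.77 on the equal share and 0.67 with at least 5 genes. With 1 library per genotype and no replicates, no test between genotypes could be made, and genes with few UMIs are limited by depth.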

Other observations

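*Aldh1a3*, an enzyme that makes retinoic acid and was picked after its values were seen, was found in 62 of 199 members (31.2%) and 67 of the other 891 *SM22-SmoM2* fibroblasts (7.52%), at 65.8 CPM (56.3 to 76.5) and 15.7 CPM (13.2 to 18.5). It stood beside the higher *Crabp2* and lower *Crabp1* of the members. *Clec11a*, a secreted growth factor of the C-type lectin family, had 83.5 and 33.7 CPM (log2 ratio 1.31, 1.05 to 1.56), and *Wisp2*, a matricellular protein, 6.93 and 47.2 CPM (−2.77, −3.54 to −2.09). *Wif1* was found in 127 members (63.8%) and 340 others (38.2%), and in none of the 9 control members. *Dkk2* was found in 78 members (39.2%) and 88 others (9.88%), and in 2 of the 9 control members.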
